A study of Mus musculus with 4 samples.

Results

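Small leucine-rich proteoglycans are secreted proteins, most of them carrying glycosaminoglycan chains, that bind collagen fibrils and set their width and spacing, and several of them also bind TGF-β. They were examined in the left ventricle of mice together with versican, a large proteoglycan that binds hyaluronan, and with cartilage oligomeric matrix protein and cartilage intermediate layer protein, which are made by fibroblasts of healing scars. In the infarcted heart these proteins are laid down with collagen while fibroblasts replace lost muscle. The 10 genes were Dcn, Bgn, Lum, Fmod, Ogn, Prelp, Aspn, Vcan, Comp and Cilp, chosen by name with earlier results of these data known. Every non-control probe of the arrays that carried one of these names was taken. These genes were 10 of 15062 genes tested, and had 17 probes, of which 16 were tested.

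RNA came from the left ventricle at 7 days after myocardial infarction (MI), made by ligating the left anterior descending coronary artery in mice of 8 to 10 weeks. There were 2 arrays from KDM5B-KO mice, named KO 2 and KO 3, and 2 from wild-type (WT) mice, named WT 2 and WT 3. KDM5B is a demethylase of histone H3 lysine 4, and the KO mice, on a C57BL/6 background, carry a CRISPR/Cas9 deletion in the JmjC region with a frame shift, and the controls of the study were littermate WT mice. All 4 samples had an infarction and no sham-operated heart was analysed here. The labels do not say whether an array holds 1 mouse or a pool, though sex-linked transcripts differed between the arrays of each genotype, which therefore were not the same RNA, and p-values measure the spread between these samples. Kdm5b, the targeted gene, was lower on both KO arrays, at a log2 signal relative to the array's 75th percentile of -0.87 on WT 2 and -1.81 on WT 3, against -2.40 on KO 2 and -2.26 on KO 3. Whether this probe lies inside the deleted part was not determined.

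On average all 10 genes were lower in KO than in WT, and none passed the test. The difference was widest on KO 2, where 9 of the 10 genes had their lowest value (39.9% of all genes did), while on KO 3 most lay close to WT. Cilp, a matrix protein that binds TGF-β, was lower on both KO arrays, by 2.32-fold on average. Lum and Ogn were also lower on both KO arrays than on both WT arrays. So was Dcn, though only just, at 7.93 on KO 2 and 7.94 on WT 3. Calling required a fold change over 2 together with an adjusted p under 0.05, and 0% of all genes tested met both. The adjusted p (limma, Benjamini-Hochberg over all 28305 probes tested) was 0.9999 for each of the 10 genes, and 215 genes (1.43%) had an unadjusted p under 0.05, among them Cilp alone of the 10, on the lower side with 0.69% of all genes.

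The sequences just upstream of some of these genes are shown as description, and no link between them and the array values was tested. Ogn and Aspn lie in a row of leucine-rich genes on chromosome 13, and Cilp showed the clearest difference on both KO arrays. The 250 bases before the start of transcription are those of RefSeq on build GRCm38.p6, plus strand, at chr13:49607765-49608014 for Ogn, chr13:49544193-49544442 for Aspn and chr9:65264930-65265179 for Cilp. Capitals mark matches on either strand to TATAAA, a common form of the TATA box, or CATTCC, bound by TEAD factors.
Ogn: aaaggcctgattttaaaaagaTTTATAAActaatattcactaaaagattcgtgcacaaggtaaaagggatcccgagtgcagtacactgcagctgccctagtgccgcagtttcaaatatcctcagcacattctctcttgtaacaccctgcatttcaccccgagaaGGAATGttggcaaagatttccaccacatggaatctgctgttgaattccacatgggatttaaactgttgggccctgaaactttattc
Aspn: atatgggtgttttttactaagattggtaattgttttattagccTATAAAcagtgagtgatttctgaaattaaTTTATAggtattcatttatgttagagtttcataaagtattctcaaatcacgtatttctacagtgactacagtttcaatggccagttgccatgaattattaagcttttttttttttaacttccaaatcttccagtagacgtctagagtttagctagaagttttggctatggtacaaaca
Cilp: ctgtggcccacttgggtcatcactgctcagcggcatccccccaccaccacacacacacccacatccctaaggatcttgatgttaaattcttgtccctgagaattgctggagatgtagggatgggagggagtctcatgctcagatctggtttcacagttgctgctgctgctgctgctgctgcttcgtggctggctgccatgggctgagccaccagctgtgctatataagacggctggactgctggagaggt

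Promoters were found in the table for 7 of the 10 genes, namely Bgn, Fmod, Ogn, Prelp, Aspn, Vcan and Cilp. TATAAA stood in 2 of the 7, Ogn and Aspn, and in 12.4% of the 32851 promoters of the table. In Ogn the TATAAA matches overlap each other, one on each strand. All TATAAA matches in Ogn and Aspn lay nearer to the far end of the printed bases than to the start of transcription. The search took TATAAA exactly, so the TATATAAG close to the start of transcription of Cilp was not counted. Whether any of these sequences acts as a TATA box was not tested. CATTCC stood in 1 of the 7, Ogn, and in 4153 of all promoters. TGACTCA, bound by AP-1, stood in 0 of the 7 (4.46% of all promoters), TGACGTCA, the cyclic AMP response element, in 0 (1.55%), GTCTAGAC, the SMAD palindrome, in 0 (0.167%), and the CArG box in 0 (1.47%). The share of G and C was 42% for Ogn, 30.0% for Aspn and 56.0% for Cilp, against a median of 52.4% over all promoters. Bgn (64.4%) and Vcan (62.4%) were the richest in G and C of the 7.

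Values are log2 of the processed Cy3 signal relative to the 75th percentile of the same array, so a difference of 1 is a fold change of 2. A gene's value is that of its tested probe with the highest mean signal, and levels of different genes are not compared, since probes differ in brightness. In tissue RNA, fewer cells of a type and less RNA per cell cannot be told apart.

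Dcn encodes decorin, the class I proteoglycan that binds collagen I and TGF-β. It measured 8.26 on WT 2 and 7.94 on WT 3, against 7.93 on KO 2 and 7.87 on KO 3. Each KO value was below each WT value, though KO 2 and WT 3 were nearly equal. The KO minus WT difference was -0.20 (SE 0.23, n = 2 per group), the second smallest of the 10, and its 95% interval ran from -0.87 to 0.47. Its size depended on the processing, at -0.59 under quantile normalization, -0.60 with the authors' values and -0.67 averaged over its tested probes. Dcn was the one gene of the 10 whose lowest value was not on KO 2. A further probe named Dcn, against a cDNA of undetermined product placed upstream of the first (chr10:96943347-96943406 in mm9, against chr10:96980233-96980292), measured -1.51, -1.61, -3.56 and -1.82 in the same order. It put KO 2 well below the other arrays, with a KO minus WT difference of -1.13 (SE 0.67), so the probes of Dcn disagreed on KO 2.

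Bgn encodes biglycan, the closest relative of decorin, which also acts on Toll-like receptors of macrophages when released from matrix, and lies on the X chromosome. Its values were 3.94 on WT 2 and 4.37 on WT 3, against 2.70 on KO 2 and 4.51 on KO 3. KO 2 was the lowest and KO 3 the highest of the 4 arrays, so the groups overlapped. The difference was -0.55 (SE 0.71, interval -2.57 to 1.47), which is within the spread of the KO arrays (SD 1.28). Its other probe gave -1.97, -1.50, -3.25 and -1.59, with KO 2 again lowest and KO 3 within the WT range.

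Aspn encodes asporin, the class I member that carries no glycosaminoglycan chain and that binds collagen and TGF-β1. It measured 3.38 on WT 2 and 3.3 on WT 3, then 1.92 on KO 2 and 3.36 on KO 3. WT 2, WT 3 and KO 3 lay close together and KO 2 was far below, so the groups overlapped. The KO minus WT difference was -0.71 (SE 0.56, interval -2.32 to 0.91).

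Lum encodes lumican, a class II keratan sulfate proteoglycan that regulates the growth of collagen fibrils. Lum measured 5.94 on both WT arrays, 4.85 on KO 2 and 5.66 on KO 3. Both KO arrays lay below the WT arrays, which were almost identical. Lum differed by -0.69 (SE 0.36, interval -1.71 to 0.33). It is the chromosome 10 neighbour of Dcn, with 54.9 kb between the probes, and differed by -1.09 at number 2 and -0.29 at number 3, against -0.33 and -0.07 for Dcn.

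Fmod encodes fibromodulin, which competes with lumican for collagen. It was measured at 2.20 on WT 2 and 2.01 on WT 3, against -0.32 on KO 2 and 2.14 on KO 3. KO 3 lay between the WT arrays and KO 2 was far below all of them. The KO minus WT difference of -1.20 (SE 0.92, interval -3.83 to 1.43) therefore rested on KO 2 alone. Prelp, whose product anchors basement membranes to connective tissue, gave 5.19, 6.18, 4.73 and 5.67 in the same order. Each KO array was lower than the WT array of its number by a similar amount, but the WT arrays differed from each other by more, and the groups overlapped. The difference of Prelp was -0.49 (SE 0.54, interval -2.02 to 1.05), and its other probe gave -0.51 (SE 0.53).

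Fmod and Prelp are neighbours on chromosome 1, with 137 kb between their probes, and lie on the same chromosome as Kdm5b itself, whose used probe was 541.3 kb from that of Fmod and 678.4 kb from that of Prelp.

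Ogn encodes osteoglycin, also called mimecan, a class III member abundant in cardiac fibroblasts. Its values were 5.90 on WT 2 and 5.97 on WT 3, against 4.70 on KO 2 and 5.55 on KO 3. The groups did not overlap, and KO 2 was again the lower of the KO arrays. Ogn differed by -0.81 (SE 0.37, interval -1.86 to 0.25).

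Vcan encodes versican, a large chondroitin sulfate proteoglycan of provisional matrix that many cell types make after injury. It measured 0.67 on WT 2 and 0.29 on WT 3, against -0.18 on KO 2 and 0.85 on KO 3. KO 2 was lowest and KO 3 highest, and the KO minus WT difference of -0.15 (SE 0.45, interval -1.43 to 1.14) was the smallest of the 10. A probe against transcript variant 5, which bridges an intron (chr13:89865266-89871120 in mm9, minus strand), gave -1.26, -1.45, -1.50 and -1.13, a difference of 0.04 (SE 0.25). It is shown because it reports spliced RNA.
Vcan junction probe: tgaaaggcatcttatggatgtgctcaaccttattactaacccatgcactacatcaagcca

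The remaining Vcan probes were faint. One against variant 5 was well above background on both WT arrays and on neither KO array, at a WT mean of -5.12 and a measured KO mean of -5.61. It entered the test through the WT arrays alone, so no fold change is read from it. A second, against a cDNA of undetermined product, was well above background on 3 arrays and differed by -0.18. The third was well above background on 0 arrays and was not tested.

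Comp encodes cartilage oligomeric matrix protein, a thrombospondin that catalyses collagen fibril assembly. Its probe also bridges an intron (chr8:72905692-72905825 in mm9, plus strand).
Comp junction probe: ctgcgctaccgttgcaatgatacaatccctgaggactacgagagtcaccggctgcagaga

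Comp measured 5.48 on WT 2 and 6.69 on WT 3, against 3.31 on KO 2 and 6.30 on KO 3. It was the most variable of the genes within groups, with a gap of -2.99 between KO 2 and KO 3, and the groups overlapped because KO 3 was above WT 2. The difference was -1.28 (SE 1.19, interval -4.69 to 2.12), the widest mean difference of the 10 and also the least precise.

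Cilp measured 4.47 on WT 2 and 4.01 on WT 3, against 2.85 on KO 2 and 3.2 on KO 3. The KO values were clearly below the WT values, and the replicates of each group lay within 0.5 of each other. The KO minus WT difference was -1.21 (SE 0.29, n = 2 per group), with an interval from -2.05 to -0.38, and Cilp was the one gene of the 10 whose interval left out 0. The smallest two-sided p that exact permutation of 2 arrays against 2 allows is 0.333.

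**Figure D1:**
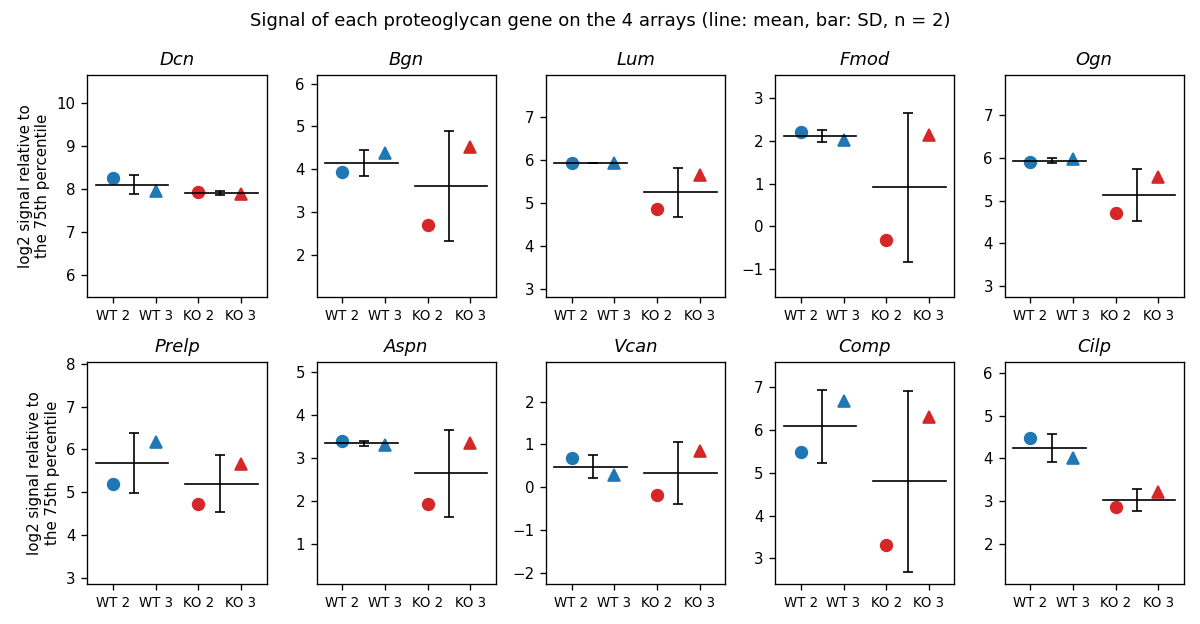
Log2 signal after the shift by the array's 75th percentile (vertical axis, the same span in every panel) on each of the 4 arrays for the 10 proteoglycan genes, with WT in blue, KO in red, circles for number 2 and triangles for number 3, and lines and bars for the mean and SD of 2 arrays. KO 2 is the lowest point for 9 genes, and for Cilp the red points lie below the blue ones.

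As a group, 10 of 10 genes were lower in KO by any size, against 44.9% of all genes tested, with a median difference of -0.70 against 0.04 over all genes. The 10 genes were chosen with earlier results of these data known, so the shares over all genes are given as description only. Fold changes over 2 towards lower values were seen for Fmod, Comp and Cilp, 3 of 10, against 2.35% of all genes. The groups did not overlap, with KO lower, for 4 of 10 (Dcn, Lum, Ogn and Cilp), against 8.90% of all genes. For Dcn the arrays KO 2 (7.93) and WT 3 (7.94) were nearly equal. KO 2 lay below KO 3 by more than a fold change of 2 for 5 of 10 (14.7% of all genes). These counts rested largely on KO 2. Without KO 2, 5 of 10 genes were lower in KO (46.7% of all genes), the median difference was -0.00099, and Cilp alone was past a fold change of 2 (3.82% of all genes). Without KO 3, 10 of 10 were lower and 7 were past a fold change of 2, with a median of -1.31.

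Set against the WT array of the same number, KO 2 was lower for 10 of 10 genes (46.6% of all genes), with a median of -1.22, and 7 of them were past a fold change of 2 (9.39% of all genes). Fmod stood lowest at -2.52, a 5.74-fold difference, followed by Comp at -2.18 and Cilp at -1.62. Dcn at -0.33 and Prelp at -0.46 were nearest to 0. On KO 3, set against WT 3, 6 genes were lower (46.0% of all genes) and 4 higher, with a median of -0.18, and 0 were past a fold change of 2 (1.78% of all genes). Cilp had the lowest value there too, at -0.81, followed by Prelp at -0.51 and Ogn at -0.42. Lower on KO 2 and higher on KO 3 were Bgn, Fmod, Aspn and Vcan, a pattern that 28.2% of all genes shared. The other 6 were lower at both numbers, which held for 18.4% of all genes. Each of these values compares a single array with another and has no test.

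**Figure D2:**
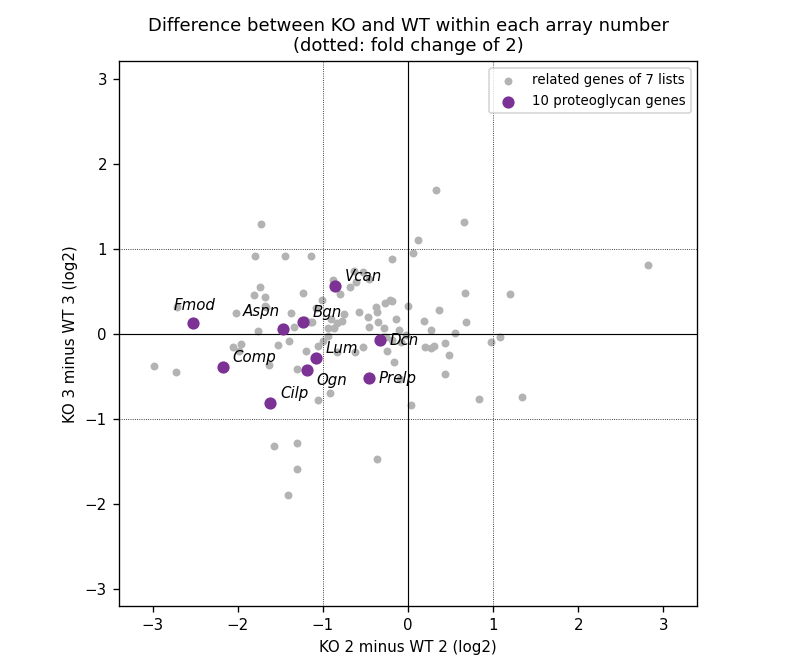
Difference of KO 2 minus WT 2 (horizontal axis, log2) against KO 3 minus WT 3 (vertical axis, log2), with the 10 proteoglycan genes in purple, the tested genes of 7 lists of related genes in grey, and dotted lines at a fold change of 2. All 10 genes lie left of 0, from -0.33 to -2.52, while on the vertical axis they lie between -0.81 and 0.56.

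The arrays also differed in marker genes of cell types. Cardiomyocyte markers, among them Myh6, Tnnt2 and Ryr2, were highest on KO 2 for 12 of 12 genes, with a mean level of 7.48 there, while the means of WT 2, WT 3 and KO 3 were 6.48, 5.31 and 4.50. Fibroblast identity genes such as Pdgfra, Tcf21 and Col1a1 were lowest on KO 2 for 11 of 12, with mean levels of 4.87, 5.13, 4.14 and 4.92 on WT 2, WT 3, KO 2 and KO 3. Activated myofibroblast genes, Postn and Acta2 among them, were lowest on KO 2 for 10 of 10, at 1.63, and highest on KO 3 at 4.46, with WT at 3.43 and 3.88. Macrophage genes were lowest on KO 2 for 9 of 9, with mean levels of 3.53, 4.06, 2.37 and 4.29 in the same order, and neutrophil genes for 5 of 5, at 0.36, 0.71, -2.27 and 0.79. Chondrocyte genes, listed because Comp, Cilp and Prelp are known from cartilage, were tested for 5 of 7 and lay at -0.10, -0.07, -1.74 and -0.17. Epicardial and mesothelial genes were lowest on KO 2 for 5 of 6, at -0.51, 0.19, -2.67 and 0.96. T and B cell genes were lowest there for 5 of 7, at -2.98, -2.88, -4.46 and -2.32. Levels of smooth muscle genes (2.26, 2.42, 2.51 and 2.34) and endothelial genes (2.33, 2.43, 2.87 and 2.16) varied less. The part of these lists in the results was not tested. The mean level of the 10 genes was 4.54, 4.67, 3.25 and 4.51.

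**Figure D3:**
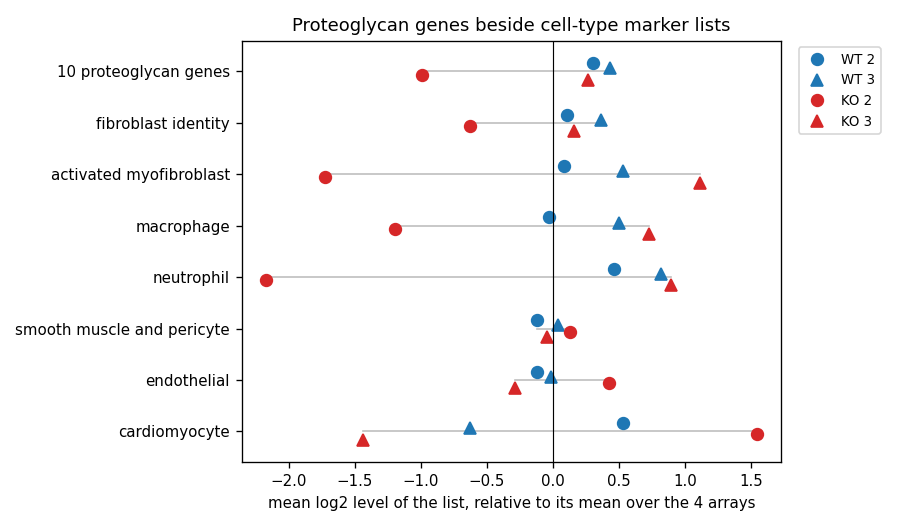
Mean log2 level of each list on each array relative to its own mean over the 4 arrays (horizontal axis, log2), with WT in blue, KO in red, circles for number 2 and triangles for number 3. KO 2 lies lowest for the proteoglycan genes and for the fibroblast, myofibroblast, macrophage and neutrophil lists, and highest for the cardiomyocyte list.

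Relative to the mean of the fibroblast identity list of the same array, the genes split. Comp (-0.82), Cilp (-0.75) and Fmod (-0.73) stayed lower in KO, Ogn (-0.34), Aspn (-0.24) and Lum (-0.22) were lower by less, Bgn (-0.08) and Prelp (-0.02) were near 0 on average, and Dcn (0.27) and Vcan (0.32) were higher. This scaling moved the median of all probes to 0.49. Cilp was lower at both numbers on this scale, by -0.89 at number 2 and -0.60 at number 3, whereas Fmod was -1.79 and then 0.33. Comp, Lum and Ogn were also lower at both numbers, at -1.45 and -0.19 for Comp, -0.35 and -0.08 for Lum and -0.46 and -0.21 for Ogn. Bgn was at -0.51 at number 2 and 0.35 at number 3, and Prelp at 0.27 and -0.31.

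**Figure D4:**
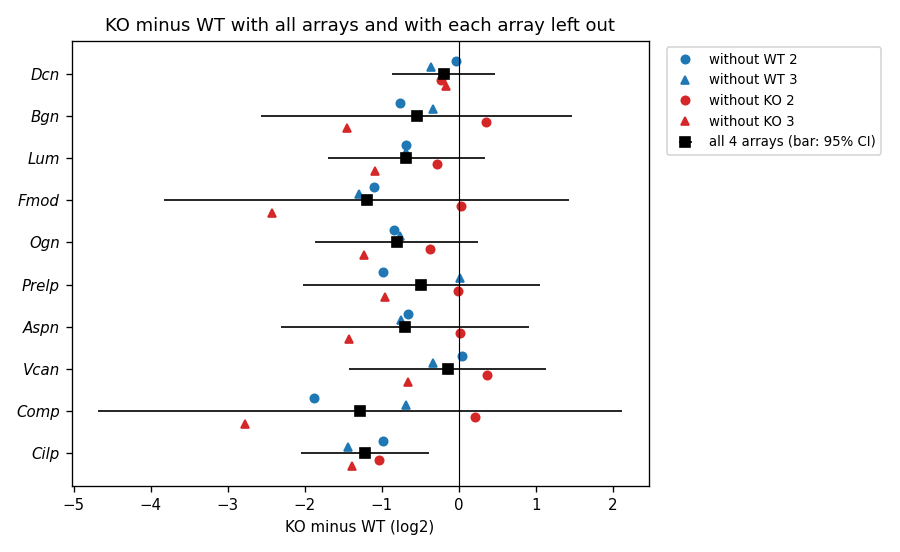
KO minus WT difference (horizontal axis, log2) for each gene with all 4 arrays (black square, with the 95% interval) and with each array left out in turn (coloured points). Cilp stays between -1.44 and -0.99 whichever array is left out, and Comp moves between -2.78 and 0.21.

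Among the other small leucine-rich genes, 9 of 11 were tested, and 4 were higher and 5 lower in KO, with a median of -0.11 and 0 called. Omd, which encodes osteomodulin, a keratan sulfate proteoglycan of bone, measured 0.21 on WT 2 and 0.56 on WT 3, against -1.09 on KO 2 and -0.71 on KO 3. Ecm2, a leucine-rich matrix gene, measured 1.51, 1.34, 0.46 and 0.57 in the same order. For both, the KO arrays lay below the WT arrays by more than the spread within groups, with differences of -1.29 (SE 0.28) for Omd and -0.91 (SE 0.21) for Ecm2. They stand in the row of genes that holds Aspn and Ogn on chromosome 13, in the order Ecm2, Aspn, Omd and Ogn, with gaps of 36.8, 25.3 and 31.6 kb between the probes. Of these neighbours Omd, Ecm2 and Ogn were lower at both numbers, and Aspn only on KO 2. Podn, for podocan, was the highest of the list at 0.44, followed by Chadl at 0.16.

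Genes of hyaluronan and its binding proteins showed 4 higher and 8 lower of 12 tested, with a median of -0.08 and 0 called. Tnfaip6, whose product links hyaluronan to inter-alpha-inhibitor, was lowest at -1.58 (0.83, -0.46, -1.90 and -0.90 on WT 2, WT 3, KO 2 and KO 3), and Has1, a hyaluronan synthase, followed at -1.04. Hmmr, a hyaluronan receptor that is also a mitotic protein, was highest at 1.0. Cell surface and small proteoglycans showed 6 higher and 8 lower of 14, with a median of -0.08, from Sdc1 (syndecan 1) at -0.89 and Gpc3 (glypican 3) at -0.81 to Gpc1 (glypican 1) at 0.52 and Esm1 (endocan) at 0.61. For the enzymes that build chondroitin, dermatan and keratan sulfate chains, 9 were higher and 19 lower of 28, with a median of -0.14, and 0 were past a fold change of 2 in either direction. Chst11, a chondroitin sulfotransferase, was the lowest at -0.68 and Chst3 the highest at 0.50. The list lay at -0.41 at number 2 and 0.14 at number 3.

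Proteases that cleave these proteoglycans were split, 5 higher and 8 lower of 13, with 0 called. Mmp9, a gelatinase of neutrophils and macrophages, was at -1.84, -1.40, -4.82 and -1.78, so that KO 2 alone was low. Mmp3, stromelysin 1, was at 0.44 on WT 2 and 1.64 on WT 3, against -0.96 on KO 2 and -0.25 on KO 3, lower on both KO arrays, with a difference of -1.65 (SE 0.55). Adamts8 was higher on both KO arrays, at -1.93, -1.47, 0.89 and -0.67, with a difference of 1.81 (SE 0.63).

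The thrombospondins and Cilp2, relatives of Comp and Cilp, were lower for 5 of 5 on average, with a median of -0.86 and 0 called. Thbs2 measured 2.87, 3.15, 0.15 and 3.46, low on KO 2 and highest on KO 3. Cilp2, the paralogue of Cilp, measured -0.74, -2.42, -2.72 and -2.62, so that WT 2 alone stood high. Among collagen partners, elastic fibre genes and receptors of the proteoglycans, 2 were higher and 18 lower of 20, with a median of -0.44 and 0 called. The median of the list was -1.0 within number 2 and 0.05 within number 3, and 7 of 20 were lower once KO 2 was left out. Fbln1, for the elastic fibre protein fibulin 1, measured 4.15, 4.64, 2.85 and 3.05, and Eln, for elastin, 3.09, 4.33, 1.51 and 3.02. Both were lower at both numbers, with mean differences of -1.45 (SE 0.28) for Fbln1 and -1.45 (SE 0.74) for Eln.

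The genes whose centred values over the 4 arrays lay nearest to the mean profile of the 10 genes (0.30, 0.43, -1.0 and 0.27 on WT 2, WT 3, KO 2 and KO 3) were Map1a, Clmp, Rhou, Ptgis and 9130008F23Rik, at root mean square differences of 0.024 to 0.057, against a median of 0.63 over all genes. Of the 10 genes themselves, Aspn (0.10), Ogn (0.15) and Lum (0.17) lay nearest to that profile and Comp (0.77) farthest. Dcn (0.56), which varied little, and Cilp (0.45), with its low value on KO 3, lay farther off.

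Depth on arrays is the signal over background, and 68.1% (KO 2) to 72.0% (WT 3) of probes were well above background on each, with 0 saturated spots. KO 2 was the dimmest array before the shift. Its 75th percentile signal was 607.6, against 876.3 on WT 2, 976.1 on WT 3 and 885.2 on KO 3. Whether this bears on its low values was not tested. The used probes of all 10 genes were well above background on all 4 arrays. All arrays shared 1 slide, with WT at positions 1 and 2 and KO at 3 and 4, so position and genotype cannot be told apart. All samples are labelled male. However, Xist was at 4.36 and 4.0 on the arrays numbered 2 (WT, KO) and at -8.01 and -7.78 on those numbered 3. The Y-linked genes Ddx3y, Eif2s3y, Kdm5d and Uty had the opposite split. Ddx3y was at -7.65 and -7.62 on number 2, and at 1.95 and 1.65 on number 3. That is the pattern of female RNA at number 2 and male RNA at number 3, against the label. Sex and number therefore cannot be told apart, and the spread within each genotype includes this difference. Bgn, the X-linked gene of the 10, was 3.94 and 4.37 on the WT arrays of the different numbers.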

How the data were processed

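Each array was hybridised with Cy3-labelled left ventricular RNA. The authors deposited per-spot intensity values from Agilent Feature Extraction 10.7.3.1, background-subtracted and detrended per the file headers, on build mm9, and a table of log2 values made with GeneSpring. Of that table's values, 99.90% to 99.96% per array matched quantile-normalized log2 processed signals to 0.01 (column median 6.78), and it served as an alternative.

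Of 43379 non-control spots per array, outlier spots (92 to 116) were left out. The log2 processed signals of the spots of a probe were averaged. These values were shifted by each array's 75th percentile over non-control probes. A probe entered the test if both WT arrays or both KO arrays were well above background (28305 of 41174, with 12863 dim and 6 missing a value). The comparison of genotypes used limma 3.58.1 in R 4.3.3 with Benjamini-Hochberg adjustment, tested on simulated data. The simulation used independent noise and capped the spread of each probe at the median spread. It therefore does not show how the test performs at the wider spreads seen here. GRCm38.p6 RefSeq symbols matched 31437 probes, older symbols 471, accessions 1820, and 7446 had none. No mm9 annotation was used, so exon or UTR position was not determined.

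Groups and numbers came from the titles. The 10 genes and the lists were chosen with earlier results of these data known. The text names all 10 genes, Kdm5b, up to 2 highest and 2 lowest genes of each list, and the 5 most alike genes.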

Additional observations from a re-analysis of the deposited data

Results flagged for a closer look

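For 4 of the 10 genes the KO array of number 2 was below its WT array and the KO array of number 3 above its own. The gap between the differences at the 2 numbers (number 2 minus number 3) was -1.38 for Bgn (-1.24 and 0.14), -2.64 for Fmod (-2.52 and 0.12), -1.52 for Aspn (-1.47 and 0.06) and -1.41 for Vcan (-0.85 and 0.56). The difference between the numbers was not tested, since each rests on 1 array of each genotype. The numbers also differ in sex-linked transcripts.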

How the results depend on the processing

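With 4 arrays, 118 of 120 values of the 10 genes kept the lower direction under normexp, quantile, median and fibroblast-list scaling, other filters, the authors' values, the replicate block, the methods' t-test, the cardiomyocyte covariate, trend with robust estimation and probe averaging. Of these, 56 were identical to the reported value, since a filter, block or other test leaves the difference as it is, and could not reverse. The exceptions were Dcn (0.27) and Vcan (0.32) under the fibroblast-list shift, where 0 genes were past a fold change of 2. In each setting but probe averaging, which gives differences only, 0 probes were called, while probes at an unadjusted p under 0.05 numbered 410, and 1162 under normexp, 879 by the methods' t-test, 4437 with the covariate and 602 with the replicate block. The array numbers shared a correlation of deviations of 0.57 but no stated mouse or batch, and the block changed no call. The covariate had nearly the same mean in both groups and left 1 residual degree of freedom, so it could hardly move a difference. Leaving out 1 array, the median ran from -1.31 to -0.00099, the genes past a fold change of 2 from 1 to 7, and the genes lower in KO from 5 to 10. Directions reversed without KO 2 for Bgn (0.36), Fmod (0.028), Aspn (0.016), Vcan (0.37) and Comp (0.21), without WT 2 for Vcan (0.04) and without WT 3 for Prelp (0.0086). The full ranges were -1.43 to 0.016 for Aspn, -1.45 to 0.36 for Bgn, -2.78 to 0.21 for Comp, -2.43 to 0.028 for Fmod, -0.99 to 0.0086 for Prelp and -0.67 to 0.37 for Vcan. The cause was not tested. Without KO 3, 7278 probes had an unadjusted p under 0.05 and without KO 2, 1695, where a lone KO array is assumed to vary like the WT arrays. Slide and scan day as a block were not run, since all arrays shared 1 slide and 1 day. The number of arrays limits every value.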
